A study of Mus musculus with 8 samples.

Results

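The genes described here encode kisspeptin, neurokinin B, dynorphin, gonadotropin-releasing hormone (GnRH) and the RF-amide peptides of Npvf, together with their receptors. They were given by name, as 10 symbols, and matched to the count table by identifier. Rfrp is an older name of Npvf, so the symbols stand for 9 genes of the 55890 in the table.

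RNA of the hypothalamus of 16-week-old gonadal-intact female mice was sequenced after poly(A) selection in 8 pools of 2 animals each. In the 4 POMC-C451Af/f pools, a Cre transgene under the Pomc promoter recombined the floxed C451Af/f allele of Esr1, so that estrogen receptor alpha lost its signalling from the membrane. The 4 control pools were littermates homozygous for the floxed allele without Cre by the study's methods, and wildtype by the labels. At this age the paper reports higher serum estradiol, testosterone and progesterone in intact POMC-C451Af/f females than in controls. Effects of the mutation and of these hormones on RNA cannot be told apart here. The mutation was made only in cells in which Pomc-Cre was active, so RNA of the whole tissue dilutes its effect there, and counts per gene do not tell mutated from intact Esr1. Estimated counts totalled 37841365 to 48942116 in control pools and 36095253 to 40498166 in POMC-C451Af/f pools. Pools are separate animals, and p-values measure the spread between pools of 2 animals.

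Kisspeptin neurons of the arcuate nucleus also make neurokinin B, which excites them through its receptor, and dynorphin, which inhibits them. They drive the pulses of GnRH neurons, and estrogen acting on kisspeptin neurons carries much of the feedback of the ovary on GnRH release. RF-amide peptides of Npvf neurons restrain GnRH release in many mammals.

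Of the 9 genes, 8 passed the filter on low counts and were tested, and Kiss1 was not. None of the 8 was called between genotypes at a false discovery rate (FDR) of 0.05 with an absolute log2 fold change over 0.5 in edgeR's quasi-likelihood test, against 0.0215% of all 18637 tested genes. The 4 genes called in all were Efr3b, Myo7a, Mrpl48-ps and Gm44675, which are named because they are few, after their values were seen. At an unadjusted p under 0.05, 2 of the 8, Tac2 and Npvf, were lower in POMC-C451Af/f pools, against 2.39% of all tested genes, and 0 were higher, against 2.70%. DESeq2 called 0 of the 9. Tac2 and Npvf encode peptides, and of the 4 receptor genes the lowest unadjusted p was 0.173, of Tacr3, in edgeR.

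Kiss1 encodes the precursor of kisspeptin, and its row of the table did not measure it alone. Its estimated count was 0 in all 4 control pools and in POMC-C451Af/f pools 1 and 3, and was 12.6 in POMC-C451Af/f pool 2 and 9.97 in pool 4. A count of 0 allows up to 3 counts, or 0.0614 to 0.0842 CPM by pool (CPM is the count scaled to the library total as adjusted by the trimmed mean of M values, TMM), counting error only. The annotation (GENCODE M21, build GRCm38) places Kiss1 at chromosome 1, 133321875 to 133329901, on the plus strand, with 779 bp of exon. All of that exon lies within 1 gene named Gm28040, and 63.9% of it within another gene of the same name. The latter has 741 bp of exon, and each of its 3 transcripts carries the whole 378 bp of coding sequence of Kiss1. Reads from this sequence can be given to any of the 3 genes, so their split in the table is uncertain. In the 2 transcripts of the longer Gm28040 gene, 0 and 119 bp of this sequence are annotated as coding. Golt1a, on the same strand, shares 102 bp (13.1%) of the exon of Kiss1, and its estimated count was 0 in 7 pools and 2.0 in POMC-C451Af/f pool 4. The counts were made on a later annotation, whose transcripts of these genes were not analysed here.

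The shorter Gm28040 gene held most of the counts. Its estimated counts were 90.7, 90.2, 69.0 and 65.0 in control pools 1 to 4, and 57.5, 18.4, 19.1 and 18.0 in POMC-C451Af/f pools 1 to 4. It was lower in every POMC-C451Af/f pool than in any control pool by count, but the pools differ in total, and in scaled CPM the groups overlapped, with POMC-C451Af/f pool 1 at 1.43 and control pool 3 at 1.41 CPM. The longer Gm28040 gene held 3.92, 2.52, 2.47 and 8.64 in control pools and 2.44, 0, 2.87 and 0 in POMC-C451Af/f pools. The pools with a count for Kiss1 itself were the same 2 in which the longer gene was at 0.

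**Figure D1:**
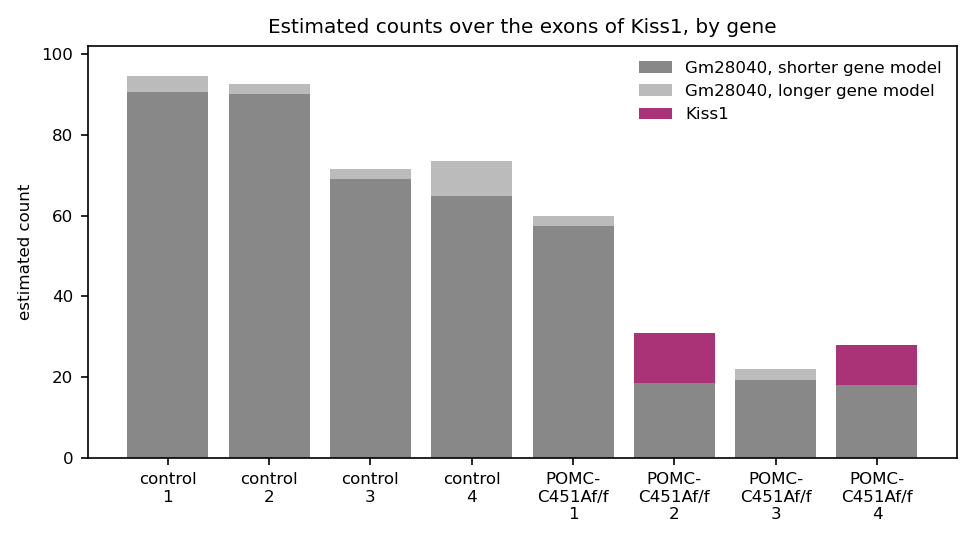
Estimated counts (y axis) of Kiss1 and of the 2 genes named Gm28040 that hold its exons, stacked for each pool (x axis). Kiss1 has counts only in POMC-C451Af/f pools 2 and 4, and the shorter Gm28040 gene makes up 59.5% to 97.3% of each bar.

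Summed to 1 feature, here called the Kiss1 locus (a sum chosen after its counts were seen), the 3 genes gave 2.36, 2.13, 1.47 and 1.96 CPM in control pools 1 to 4. POMC-C451Af/f pools 1 to 4 gave 1.48, 0.833, 0.618 and 0.779 CPM. POMC-C451Af/f pools 2, 3 and 4 were below every control pool, and pool 1 was level with control pool 3, so the groups just overlapped. The row of Kiss1 alone thus ran the other way from the sum, with counts in 2 POMC-C451Af/f pools and in 0 control pools. The means were 0.928 ± 0.380 CPM in POMC-C451Af/f pools and 1.98 ± 0.376 CPM in control pools (SD, n = 4 each), a log2 fold change of -1.08 ± 0.260 (SE). By edgeR's quasi-likelihood test its unadjusted p was 0.00179 and its FDR 0.878, so it was not called, and an exact two-sided permutation test gave p = 0.0571, where the smallest possible is 0.0286. In bulk RNA, fewer kisspeptin cells, less RNA per cell and a smaller share of arcuate tissue cannot be told apart. Part of the sum, from the longer Gm28040 gene, need not code for kisspeptin. The locus was called in no setting. When the midbrain marker list entered the fit its log2 fold change was -0.77, with an unadjusted p of 0.0568 in edgeR. That list was itself higher in POMC-C451Af/f pools, so its part and that of genotype cannot be fully told apart, here and below. Without POMC-C451Af/f pools 3 and 4 the locus was at -0.76, with an unadjusted p of 0.0219 in edgeR. Gm28040 alone was called in 1 setting, without POMC-C451Af/f pool 1, where its log2 fold change was -1.87 and its FDR 0.0416, against -1.31 and 0.878 with all 8 pools in edgeR.

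Sequences upstream of the starts that RefSeq gives for Tac2, which had the lowest unadjusted p of the 8 tested genes, and for Kiss1, which the locus is named after, are shown here (GRCm38.p6, plus strand, 5′ to 3′). Of the Kiss1 transcripts, the longer starts at 133321875, upstream of this window, so the run printed for Kiss1 lies within its intron. The 250 bases before the start were searched on both strands for the estrogen response element GGTCANNNTGACC, its arm GGTCA alone (TGACC on the other strand) and the GC box GGGCGG, in 7 of the 9 genes in the promoter table. The arm was found only in the window of Kiss1, where TGACC lies 65 and 36 bases before the start, and 35.2% of the 32851 promoters of the table hold one. Both of these lie in an annotated exon of the shorter Gm28040 gene, which begins 77 bases before the start, and the run printed here ends where that exon begins. The full element was in 0 of the 8 windows of these genes and in 0.0639% of all promoters, and the GC box was in 2 windows, of Kiss1r and Npffr1, and in 32.7% of all. The runs hold no motif, so none of their bases is in capitals.
Kiss1, chr1:133326962-133327134: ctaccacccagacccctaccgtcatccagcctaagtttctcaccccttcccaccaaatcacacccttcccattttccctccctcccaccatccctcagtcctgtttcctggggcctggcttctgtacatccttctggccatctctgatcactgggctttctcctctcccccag
Tac2, chr10:127724228-127724477: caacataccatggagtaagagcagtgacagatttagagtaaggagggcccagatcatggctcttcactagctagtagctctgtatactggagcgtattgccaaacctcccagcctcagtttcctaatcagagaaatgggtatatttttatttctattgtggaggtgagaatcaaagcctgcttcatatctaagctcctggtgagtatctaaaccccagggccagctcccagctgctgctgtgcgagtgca

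Tac2 encodes neurokinin B (chromosome 10, 127724478 to 127731768). Its level was 30.6, 29.6, 30.1 and 31.8 CPM in control pools 1 to 4 and 28.4, 27.1, 27.5 and 23.1 CPM in POMC-C451Af/f pools 1 to 4. Every POMC-C451Af/f pool was below every control pool, with pool 4 the lowest, and the groups did not overlap. Among tested genes, 1.45% did not overlap with lower values in POMC-C451Af/f pools, and 1.34% with higher values, where 0 of the 8 genes stood. The mean was 26.5 ± 2.33 CPM against 30.5 ± 0.944 CPM (SD, n = 4 each), or 13.0% lower. The log2 fold change was -0.20 ± 0.0595 (SE), with an unadjusted p of 0.00667 and an FDR of 0.878 in edgeR, and the exact permutation p was 0.0286, the smallest that 8 pools allow. Leaving out each pool in turn gave -0.24 to -0.14.

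Tac2 is also expressed in the medial habenula, outside the hypothalamus. POMC-C451Af/f pool 3 held Pou4f1 at 6.37 CPM and Gpr151 at 7.16 CPM, which were at most 0.511 and 1.09 CPM in the other 7 pools, and the summed habenula list was 62.8 CPM there and 21.3 to 26.3 CPM elsewhere. The part of this RNA in the level of Tac2 was not tested. Without POMC-C451Af/f pool 3, Tac2 was at -0.22 on the log2 scale.

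Pdyn, which encodes dynorphin, was at 70.4, 56.9, 61.6 and 53.3 CPM in control pools and 53.7, 62.5, 39.0 and 51.5 CPM in POMC-C451Af/f pools 1 to 4. POMC-C451Af/f pools 3 and 4 were below every control pool, and pool 2 was above 3 of the 4 control pools. The log2 fold change was -0.23 ± 0.127 (SE), with an unadjusted p of 0.101 and an FDR of 0.878 in edgeR. It was -0.33 without POMC-C451Af/f pool 2 (unadjusted p of 0.018 in edgeR), -0.12 without POMC-C451Af/f pool 3, -0.15 without control pool 1 and -0.06 without POMC-C451Af/f pools 3 and 4. The sign turned with the midbrain list as a covariate, where it was 0.08. The striatum, which also expresses Pdyn, gave a summed list of 175.1 to 186.5 CPM in control pools and 186.3 to 203.1 CPM in POMC-C451Af/f pools.

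Gnrh1 encodes GnRH, whose neurons are few and scattered through the preoptic region. It had 33.1, 41.0, 55.0 and 91.7 estimated counts in control pools and 23.0, 27.0, 31.3 and 53.0 in POMC-C451Af/f pools, so counting error is large. In CPM these were 0.819, 0.940, 1.12 and 2.44 against 0.568, 0.725, 0.871 and 1.47, with control pool 4 the highest. The groups overlapped, and the log2 fold change of -0.54 ± 0.388 (SE) had an unadjusted p of 0.191 and an FDR of 0.878 in edgeR. With the replicate number as a block it was -0.51 ± 0.171 (SE), with an unadjusted p of 0.0194 and an FDR of 0.789 in edgeR. It was -0.09 without control pool 4 and -0.87 without POMC-C451Af/f pool 4 (unadjusted p of 0.0517 in edgeR). With the midbrain list as a covariate it was farther from 0, at -1.20 (unadjusted p of 0.0263 in edgeR), and without POMC-C451Af/f pools 3 and 4 it was -1.03.

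Npvf encodes the RF-amide peptides and is made by neurons of the dorsomedial hypothalamus. It was at 6.95, 5.46, 5.69 and 5.83 CPM in control pools 1 to 4 and at 3.63, 6.47, 3.31 and 3.50 CPM in POMC-C451Af/f pools 1 to 4. POMC-C451Af/f pool 2 lay among the control pools, and the other 3 were below all of them. The log2 fold change was -0.50 ± 0.200 (SE), with an unadjusted p of 0.0309 and an FDR of 0.878 in edgeR, and the exact permutation p was 0.114. It was -0.78 without POMC-C451Af/f pool 2, with an FDR of 0.143, -0.24 without POMC-C451Af/f pools 3 and 4, and -0.12 with the midbrain list as a covariate.

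**Figure D2:**
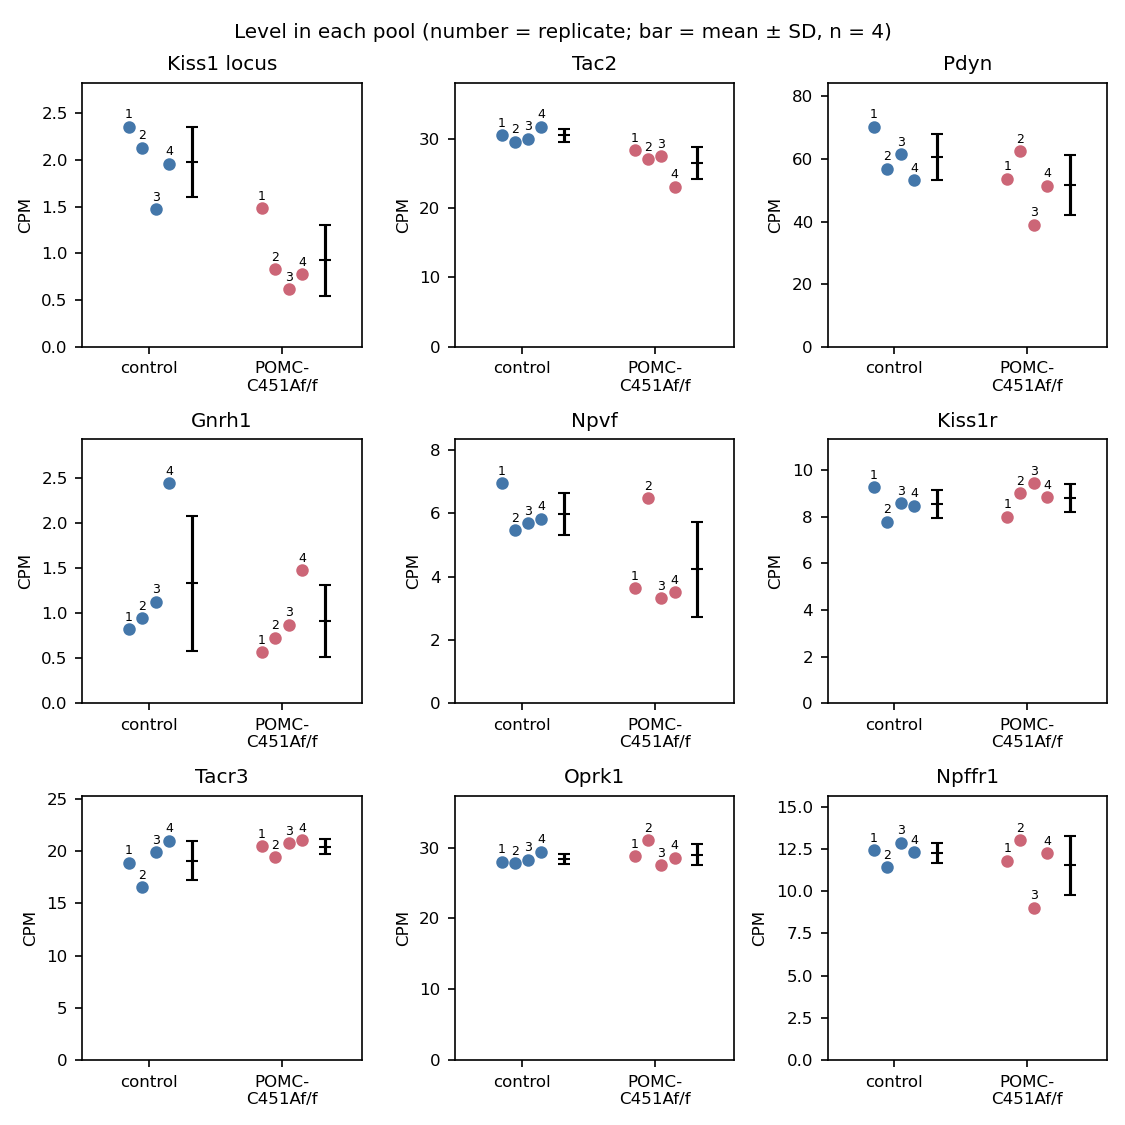
Level of each gene in each pool in CPM (y axis), by genotype (x axis), with the replicate number at each point and the mean ± SD of 4 pools beside it. Tac2 is the panel in which the groups do not overlap.

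Of the receptor genes, 3 were at a log2 fold change above 0 and 1, Npffr1, below it. Kiss1r, the receptor of kisspeptin on GnRH neurons, ranged from 7.79 to 9.25 CPM in control pools and from 8.0 to 9.44 CPM in POMC-C451Af/f pools, a log2 fold change of 0.05 ± 0.0800 (SE). Tacr3, the receptor of neurokinin B, ranged from 16.6 to 21 CPM and from 19.4 to 21.1 CPM, at 0.10 ± 0.0683. Oprk1, the kappa opioid receptor through which dynorphin acts, ranged from 27.8 to 29.4 CPM and from 27.5 to 31.1 CPM, at 0.03 ± 0.0433. Npffr1, the receptor of the Npvf peptides, ranged from 11.4 to 12.9 CPM and from 9.01 to 13.0 CPM, at -0.09 ± 0.102, and POMC-C451Af/f pool 3 was its lowest. The groups overlapped for all 4 receptors, whose FDR values in edgeR were 0.878 to 0.944. The sign of each turned in at least 1 setting.

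**Figure D3:**
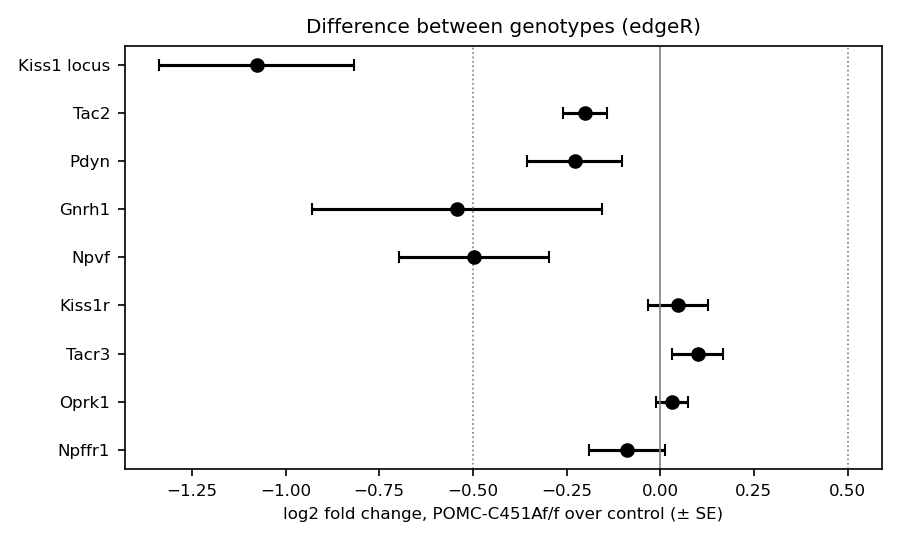
Log2 fold change of POMC-C451Af/f over control pools with its SE (x axis) for each gene and for the Kiss1 locus (y axis), with dotted lines at -0.5 and 0.5. The receptors lie within 0.10 of 0, and the Kiss1 locus lies at -1.08.

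Levels were compared per kilobase of exon, on the mean of 8 pools. Tac2 stood at 20.7 and Pdyn at 19.4 CPM per kb, and Tac2 was above Pdyn in 5 of 8 pools. Npvf (6.29) and Tacr3 (5.25) followed, in this order in 5 of 8 pools, which were the 4 control pools and POMC-C451Af/f pool 2, and then Npffr1 (3.42), Oprk1 (3.13), Kiss1r (2.25) and Gnrh1 (1.74). By genotype, Npvf was above Tacr3 in control pools (7.36 against 5.07 CPM per kb) and below it in the mean of POMC-C451Af/f pools (5.21 against 5.43). The order held in 8 of 8 pools between Pdyn and Npvf, Tacr3 and Npffr1, and Oprk1 and Kiss1r, in 7 between Npffr1 and Oprk1, and in 6 between Kiss1r and Gnrh1. The Kiss1 locus was left out of this order, since its 3 genes differ in exon length. By the longest transcript in place of all exons, Oprk1 moved from the sixth to the fourth place.

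**Figure D4:**
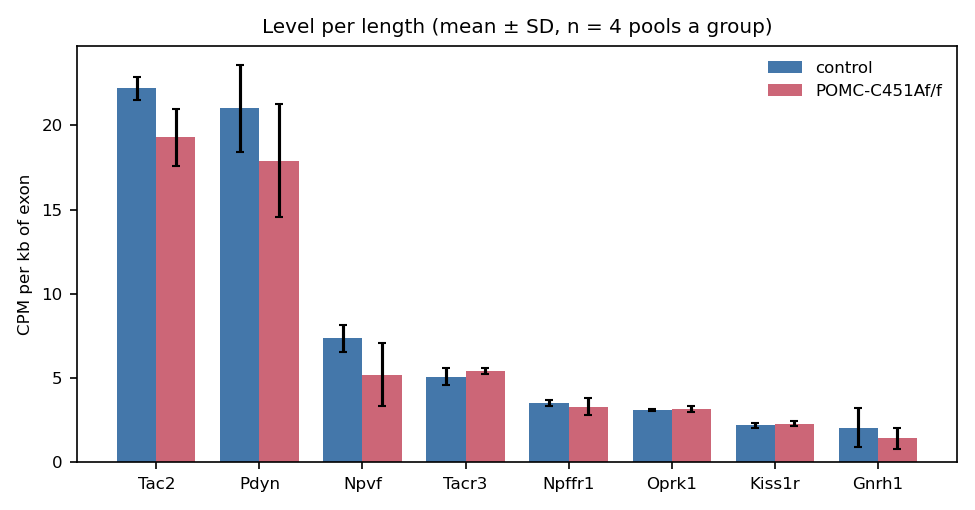
Level per kilobase of exon (y axis, mean ± SD of 4 pools a group) of the 8 tested genes (x axis), in order of the mean of 8 pools. Tac2 and Pdyn lie far above the others.

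The 28 pairs of tested genes were correlated over the 8 pools, on log2(CPM + 0.5), with exact permutation of the pairings. None passed an adjusted p of 0.05. Pdyn and Npvf had the lowest p, with Pearson r = 0.824 (exact p = 0.00327, adjusted 0.0917) and Spearman rho = 0.857 (exact p = 0.0107, adjusted 0.261), and r was 0.744 without the 2 pools farthest from the median of Pdyn. Without control pool 4 or without POMC-C451Af/f pool 1 this pair passed, at adjusted exact permutation p of 0.0278 and 0.0389. The Kiss1 locus and Tac2 had r = 0.765 (exact p = 0.0153, adjusted over 8 pairs 0.123) and rho = 0.762 (exact p = 0.0368, adjusted 0.265), with r = 0.807 without the 2 farthest pools and r = 0.337 with group means removed. Marker lists of tissue also varied between pools, and their part in these correlations was not tested.

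Of 15631 other genes, those most like each tested gene over the 8 pools, by Pearson r, were for Tac2 Inhbb (0.970), Fam20a (0.957) and Zhx3 (0.953), and for Pdyn Tubgcp3 (0.978), Myh7 (0.976) and Rufy4 (0.975). For Npvf they were Mettl9 (0.983), Hmx3 (0.967) and Vmac (0.965), and for Gnrh1 Tia1 (0.949), Lrrc8c (0.935) and 9030624G23Rik (0.934). For Kiss1r they were Trim56 (0.95), Espn (0.923) and Flt4 (0.912), and for Tacr3 Daglb (0.959), Pak2 (0.958) and Prdm2 (0.956). For Oprk1 they were ENSMUSG00000121502 (0.949), 3830408C21Rik (0.929) and Samd8 (0.928), and for Npffr1 Cpne5 (0.986), Vgf (0.984) and Tcerg1l (0.980). The highest of so many coefficients over 8 pools is high in any case, and these are given as a description.

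Beside the 9 genes, 101 other genes of the pathway in 6 lists were looked at, of which 96 were tested and 0 were called by edgeR. At an unadjusted p under 0.05, 6 were lower and 5 higher, where 2.39% and 2.70% of all tested genes were, and the median log2 fold change was -0.0051, against 0.00085 over all tested genes. The median of the 8 tested genes was -0.14, with 5 lower and 3 higher.

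Among receptors of steroid and metabolic signals (12 tested, median -0.0044), Esr1 itself, which carries the mutation, was at 12.3, 12.8, 11.6 and 16.0 CPM in control pools and 11.6, 12.2, 9.996 and 10.8 CPM in POMC-C451Af/f pools 1 to 4. POMC-C451Af/f pools 3 and 4 were below every control pool, and control pool 4 was the highest. The log2 fold change of Esr1 was -0.23 ± 0.104 (SE), with an unadjusted p of 0.0462 and an FDR of 0.878 in edgeR, and without control pool 4 it was -0.13 (unadjusted p of 0.144 in edgeR). Ghsr, the ghrelin receptor, was the highest of the list at 0.14, and at 0.05 without POMC-C451Af/f pool 3.

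Among relatives of the peptides and receptors (12 tested, median -0.11, 9 lower and 3 higher), Pomc was the lowest. Pomc, whose promoter drives Cre, was at 98.9, 49.7, 50.5 and 50.8 CPM in control pools and 49.5, 50.2, 35.8 and 30.6 CPM in POMC-C451Af/f pools. Control pool 1 stood apart from all others, and it also held the most RNA of pituitary genes, at a summed 1457 CPM against 19.3 to 226.5 CPM elsewhere. Among control pools it was also the highest in every other gene of the arcuate list. That list, with Pomc, summed to 146.8 CPM there against 81.1 to 85.7 CPM in the other control pools. The part of either tissue in the level of Pomc was not tested. The log2 fold change of Pomc was -0.59 ± 0.237 (SE), with an unadjusted p of 0.0319 and an FDR of 0.878 in edgeR, and without control pool 1 it was -0.28 (unadjusted p of 0.0971 in edgeR). The mu opioid receptor gene Oprm1 was the highest of this list at 0.50.

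Among factors and transmitter genes of kisspeptin neurons (10 tested, median -0.05), Nr5a2 was the lowest at -0.60 (unadjusted p of 0.0197 in edgeR) and Th, the rate-limiting enzyme of dopamine synthesis, the highest at 0.55 (unadjusted p of 0.00203 in edgeR). Slc17a6, the vesicular glutamate transporter, was at 0.14 (unadjusted p of 0.0479 in edgeR). Nr5a2 was at -0.39 without control pool 1, and Slc17a6 at 0.08 without POMC-C451Af/f pool 3. Th is also in the midbrain list, and over 18 alternatives it ranged from 0.15 to 0.64, with unadjusted p up to 0.102 in edgeR or DESeq2.

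Among genes of GnRH neuron development and puberty (30 tested, median -0.0014), Ndnf was at 0.47 (unadjusted p of 0.00176 in edgeR) and Cbx7 at -0.11 (unadjusted p of 0.0182 in edgeR), Robo3 was the highest at 0.96 and Sema3a the lowest at -0.19. Sema3a was at -0.12 without POMC-C451Af/f pool 1 or pool 3 and at -0.30 without pool 4. Robo3 was 12.5 CPM in POMC-C451Af/f pool 3 and 2.38 to 3.004 CPM in the other pools, and without that pool its log2 fold change was 0.07. Among signalling genes (20 tested, median 0.02), Grk5, a receptor kinase, was the highest at 0.18 (unadjusted p of 0.0467 in edgeR; 0.12 without control pool 1), Kcnj5, a potassium channel subunit, was at 0.15 (unadjusted p of 0.0498 in edgeR; 0.09 without POMC-C451Af/f pool 3), and Trpc4, a cation channel, was the lowest at -0.14, and at -0.08 without POMC-C451Af/f pool 3 or without control pool 4. Among enzymes that mature or clear peptides (12 tested, median 0.0040), Qpct was the lowest at -0.15 (unadjusted p of 0.0357 in edgeR), Thop1 was at -0.11 (unadjusted p of 0.0158 in edgeR), and Mmp2 was the highest at 0.20.

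Markers of tissue are given beside these values. The 10 defining genes of the hypothalamus were all present in every pool, and their log2 fold changes lay between -0.36 and -0.03, with a median of -0.22. Of the 10, 0 were called and 1, Trh, had an unadjusted p under 0.05 in edgeR. Their sum was 1566, 1138, 1363 and 1101 CPM in control pools 1 to 4 and 1147, 1339, 806.0 and 1027 CPM in POMC-C451Af/f pools 1 to 4, and the groups overlapped. Pmch, the most abundant, was at -0.25 (-0.13 without control pool 1 or without POMC-C451Af/f pool 3), and Trh was at -0.23 with an unadjusted p of 0.00544 in edgeR. With this list as a covariate, added after the data were seen, Tac2 was at -0.19, the Kiss1 locus at -0.91, Npvf at -0.25 and Pdyn at -0.01, while Gnrh1 was farther from 0, at -0.89 (unadjusted p of 0.0494 in edgeR).

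The midbrain dopaminergic list was higher in POMC-C451Af/f pools for 8 of 8 genes, 7 of them at an unadjusted p under 0.05 and 0 called in edgeR. Its sum was 234.1, 221.9, 268.2 and 286.8 CPM in control pools and 334.0, 265.9, 512.3 and 374.5 CPM in POMC-C451Af/f pools, and the groups overlapped at POMC-C451Af/f pool 2. Aldh1a1, the most abundant, was at 0.48 (unadjusted p of 0.00871), with Slc6a3 at 1.86 (unadjusted p of 0.0107), En1 at 1.99 (unadjusted p of 0.0102), Nr4a2 at 0.52 (unadjusted p of 0.00750), Slc18a2 at 0.32 (unadjusted p of 0.0243) and Ddc at 0.27 (unadjusted p of 0.0405), all in edgeR. Without POMC-C451Af/f pool 3, Aldh1a1 was at 0.29 and Ddc at 0.14 (unadjusted p of 0.12 in edgeR), and without POMC-C451Af/f pools 3 and 4 Slc6a3 was at 0.88 and En1 at 0.99. POMC-C451Af/f pool 3 had the highest sum of the midbrain list. It was the lowest of the 8 pools in Pdyn, Npvf, Npffr1, Oprk1 and the Kiss1 locus, the highest in Kiss1r, and neither in Tac2, Tacr3 and Gnrh1. With the midbrain list as a covariate, genes named from the other lists that were nearer to 0 by over 1.5 times, with no change of sign, included Oprm1 (0.07), Pomc (-0.21), Ghsr (0.05), Ndnf (0.25), Cbx7 (-0.04), Sema3a (-0.12), Grk5 (0.05), Moxd1 (-0.11), Pde10a (0.08), Nwd2 (0.01) and Trh (-0.12), with unadjusted p of 0.0944 to 0.963 in edgeR. With the hypothalamus list in its place, Oprm1 was at 0.24, Pomc at -0.24, Nr5a2 at -0.35, Th at 0.33, Grk5 at 0.06, Slc17a6 at 0.04, Trpc4 at -0.08, Robo3 at 0.09, Moxd1 at -0.26, Pde10a at 0.12 and Nwd2 at 0.18. Without POMC-C451Af/f pools 3 and 4, Oprm1 was at 0.21, Pomc at -0.32, Esr1 at -0.14, Nr5a2 at -0.37, Th at 0.28, Slc17a6 at 0.03, Ndnf at 0.30, Robo3 at 0.03, Grk5 at 0.08, Trpc4 at -0.06, Moxd1 at -0.29, Pde10a at 0.11, Nwd2 at 0.14 and Pmch at -0.04. The part of other tissue in the levels of these genes was not tested. The midbrain list had a mean log2(CPM + 0.5) of 3.807 to 4.515 in control and 4.219 to 5.398 in POMC-C451Af/f pools. With it as a covariate, differences by genotype and by the list cannot be fully told apart.

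**Figure D5:**
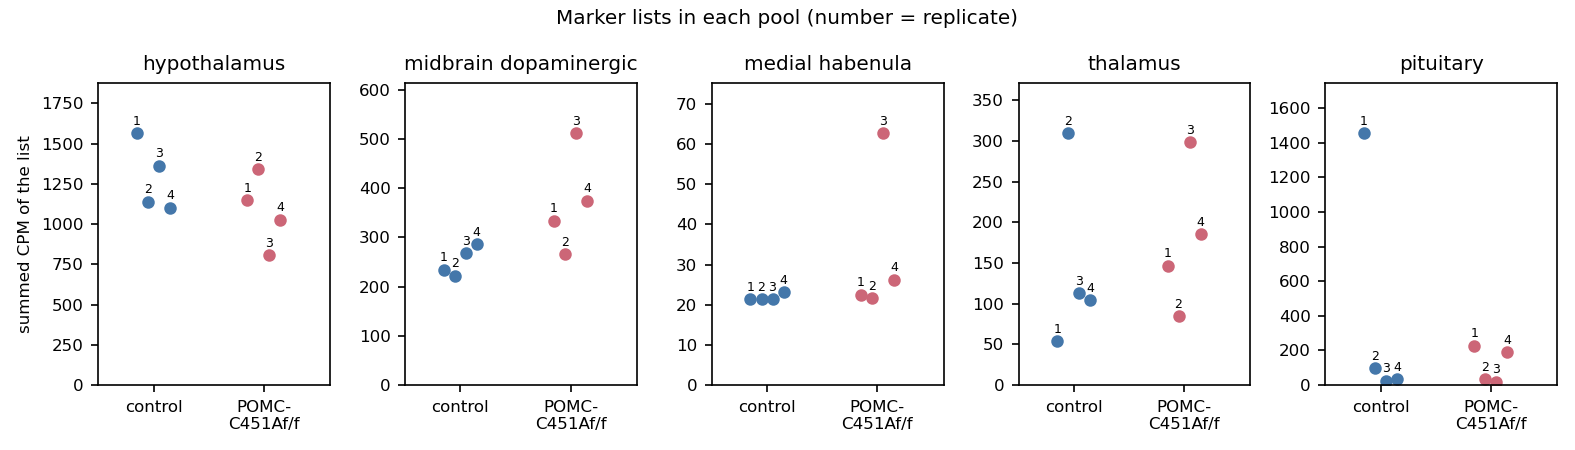
Summed CPM (y axis) of 5 marker lists in each pool, by genotype (x axis), with the replicate number at each point. POMC-C451Af/f pool 3 has the lowest sum of the hypothalamus list and the highest of the midbrain and habenula lists. The pituitary list is highest in control pool 1 and the thalamus list in control pool 2.

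Of the other lists, those of hypothalamic regions had medians of -0.04 (arcuate, Pomc most abundant), -0.09 (ventromedial, Adcyap1 most abundant), -0.06 (anterior, Rgs16 most abundant, Moxd1 at -0.60 with an unadjusted p of 0.0408 in edgeR and at -0.91 without POMC-C451Af/f pool 2), -0.22 (paraventricular, Oxt most abundant) and -0.25 (lateral, Pmch most abundant). Those of other tissue had medians of 0.79 (habenula, Nwd2 most abundant, at 0.57 with an unadjusted p of 0.0224 in edgeR and at 0.25 without POMC-C451Af/f pool 3), 0.26 (thalamus, Prkcd most abundant), 0.04 (striatum, Pde10a most abundant, at 0.24 with an unadjusted p of 0.0236 in edgeR), 0.04 (cortex and hippocampus, C1ql2 most abundant, Dsp at 0.40 with an unadjusted p of 0.0469 in edgeR and at 0.22 without POMC-C451Af/f pool 2), 0.01 (choroid plexus, Clic6 most abundant) and -0.60 (pituitary, Prl most abundant). The arcuate list, which contains Pomc, summed to 146.8, 81.1, 85.7 and 82.8 CPM in control pools 1 to 4. In POMC-C451Af/f pools 1 to 4 it was 90.5, 98.3, 66.3 and 56.1 CPM, with pools 3 and 4 below every control pool. The groups overlapped, and POMC-C451Af/f pool 4 was also the lowest in Tac2. The part of arcuate tissue in the levels of the Kiss1 locus, Tac2 and Pdyn was not tested. The habenula list was high in POMC-C451Af/f pool 3 alone, with a mean log2(CPM + 0.5) of 1.34 to 1.53 in the other 3 POMC-C451Af/f pools and 1.37 to 1.58 in control pools. The pituitary list was high in control pool 1 alone among control pools, and without that pool the sign of Prl turned, to 1.35. The thalamus list summed to 54.2 to 309.9 CPM in control pools, highest in pool 2. In POMC-C451Af/f pools it was 84.9 to 298.3 CPM, highest in pool 3. The marker at 0 in some pool was Lhb of the pituitary list and Emx1 of the cortical list.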

How the data were processed

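The authors isolated RNA of whole hypothalamus, pooled it at random in pairs within genotype, and quantified stranded poly(A) reads with Salmon 1.10 on the GENCODE mouse transcriptome of build GRCm39, summed to genes. The deposited values are estimated counts per gene, which need not be whole. A deposited table of the authors' own comparison, with fold changes and p-values, was not used. The genes and lists were chosen with earlier results of these data known.

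Estimated counts were rounded and tested with edgeR 4.0.16 (filterByExpr with a minimum count of 10, TMM scaling, quasi-likelihood test, genotype alone) in R 4.3.3, with Benjamini-Hochberg adjustment over 18637 genes. DESeq2 1.42.0 was an alternative. Single genes were also tested by exact permutation over 70 assignments of pools, on log2(CPM + 0.5), two-sided. The fit was tested on simulated data, where at a log2 fold change of 1 it found nearly all changed genes of high count and missed nearly all of low count, and the pass limits of this test were replaced after its first result was known. Genes were named from GENCODE M21, which matched 51424 of 55890 identifiers holding 99.61% of counts, and its positions are of GRCm38, not the build of the counts. Shared exons were also searched with blastn 2.17.0 at 90% identity. Genes outside the 9 were named by rule: Esr1, Pomc, the 3 most correlated genes of each tested gene with a mean of at least 1 CPM, in each pathway list the genes with an unadjusted p under 0.05 and the highest and lowest, and in each marker list the most abundant gene and those with an unadjusted p under 0.05. Summing the Kiss1 locus, the hypothalamus covariate and leaving out POMC-C451Af/f pools 3 and 4 were chosen after seeing the data. Of the marker lists, 1 is not reported here. The estrous stage at collection was not given in the sources used here. In older POMC-C451Af/f females, the paper reports a disturbed cycle with a longer diestrus.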

Additional observations from a re-analysis of the deposited data

Results flagged for a closer look

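Among 52 groups of 4 pools examined for a pool far from the others, 7 were found, where chance gives about 2.6. Of the genes described, Npvf in POMC-C451Af/f pools had pool 2 at 6.47 CPM against 3.31 to 3.63 CPM in the other 3, a gap of 0.900 of the range. The shorter Gm28040 gene, which holds the coding sequence of Kiss1, had POMC-C451Af/f pool 1 at 1.43 CPM against 0.484 to 0.534 CPM (gap 0.947). Pomc in control pools had pool 1 at 98.9 CPM against 49.7 to 50.8 CPM (gap 0.978), and in the same pool the arcuate list, which contains Pomc, summed to 146.8 CPM against 81.1 to 85.7 CPM (gap 0.931) and the pituitary list to 1457 CPM against 24.4 to 98.1 CPM (gap 0.949). The habenula list was 62.8 CPM in POMC-C451Af/f pool 3 against 21.7 to 26.3 CPM (gap 0.889), and 23.2 CPM in control pool 4 against 21.3 to 21.4 CPM (gap 0.971), a small difference in level.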

How the results depend on the processing

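None of the 8 tested genes was called by edgeR or DESeq2 in any of the settings run. Kiss1 was tested in 2 of them and called in neither, higher in POMC-C451Af/f pools in both, with an unadjusted p of 0.00507 and an FDR of 0.789 in edgeR with no filter on low counts and an unadjusted p of 0.127 in DESeq2. In the main edgeR fit, 2 of the 8, Tac2 and Npvf, had an unadjusted p under 0.05. Pdyn joined them with no filter on low counts, at an unadjusted p of 0.0422 in edgeR. Gnrh1 joined them with the replicate block, at an unadjusted p of 0.0194 in edgeR. With the midbrain or the hypothalamus list as a covariate, Gnrh1 was under 0.05 in edgeR and Npvf was not. The count of genes called in all was 4 with all pools, 12 in DESeq2, 2 with at least 10 counts in every pool and 7 without POMC-C451Af/f pools 3 and 4 (chosen after seeing the data), and 4 to 5 leaving out each pool in turn. With the replicate block it was 2, and same-numbered pools had correlations of deviations of -0.179 to 0.243, over 0.1 in 2 of 4, so the numbers were not taken to pair the pools. The cause of these changes was not tested.

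The Kiss1 locus kept its sign in 18 of 18 alternatives (-1.41 to -0.76), as did Tac2 (-0.24 to -0.13), Npvf (-0.78 to -0.12) and Gnrh1 (-1.20 to -0.09). Leaving out each pool in turn gave -1.41 to -0.93, -0.24 to -0.14, -0.78 to -0.40 and -0.87 to -0.09. The midbrain list as a covariate turned the sign of Tacr3 (-0.0262), Pdyn (0.0819), Npffr1 (0.0718), Adcyap1 (0.0306), C1ql2 (-0.00665), Ddc (-0.0773), Oxt (0.17), Pmch (0.0728), Prkcd (-0.26), Prl (2.54), Robo3 (-0.34), Slc17a6 (-0.025), Slc18a2 (-0.0118) and Slc6a3 (-0.0848). The hypothalamus list, added after seeing the data, turned Npffr1 (0.0372), Adcyap1 (0.0555), Oxt (0.0605), Pmch (0.0205), Prkcd (-0.73), Prl (1.53) and Rgs16 (-0.0679). The pituitary list turned Prl (0.16). Without POMC-C451Af/f pools 3 and 4 the sign turned for Kiss1r (-0.00394), Npffr1 (0.0199), Adcyap1 (0.0444) and Prkcd (-0.65). Leaving out each pool in turn turned the sign in some case for Adcyap1 (-0.0824 to 0.00825), C1ql2 (-0.0299 to 0.18), Npffr1 (-0.15 to 0.0115), Oprk1 (-0.00696 to 0.0546), Prkcd (-0.20 to 1.31) and Prl (-2.40 to 1.35). Of 36 named list genes outside the 9, 24 kept their sign in every alternative and 0 were called by edgeR or DESeq2 as run here. Ddc, Slc18a2 and Slc6a3 are in the midbrain list, Oxt and Pmch in the hypothalamus list and Prl in the pituitary list, so the list as a covariate holds part of their own difference. For other genes, the midbrain list, itself higher in POMC-C451Af/f pools, and genotype cannot be fully told apart. The cause was not tested.

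The exact permutation test gave 1 gene, Tac2, under 0.05 with pseudocounts of 0.5, 0.1 and 2. No correlated pair passed except Pdyn and Npvf in 2 of 8 leave-one-out settings, so the count was 0 to 1. In the level order, 5 of 8 places were the same by the longest transcript. Kiss1 counts as deposited are limited by the shared exons, and low counts of the Kiss1 locus and Gnrh1 limit what a test across 8 pools can call.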
